A study of Homo sapiens with 6 samples.

Results

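The 10 genes described here encode the subunits of the transcription factor NF-kB (NFKB1, NFKB2, RELA, RELB and REL), inhibitors of its activation (NFKBIA, NFKBIE and TNFAIP3) and signalling adaptors of the TRAF family (TRAF1 and TRAF5). They were taken by gene name from a deposited table of 58884 genes, and each name matched 1 Ensembl identifier. RNA-seq was carried out on 6 libraries of immortalized cells from human ventricular myocardium, 3 from cells given negative control siRNA (NC) and 3 from cells given siRNA against CIRBP (SiCIRBP), which encodes the cold-inducible RNA-binding protein. The labels name the line T0519, whereas the paper describes the same experiment in AC16, another line of that kind. The labels name no treatment besides the siRNA, and nothing in them says whether the replicates of a group were separate cultures, so that p-values measure the spread between libraries only. The paper set NC_1 and SiCIRBP_2 aside because of their discrepancies from the other libraries, and its comparison of NC_2 and NC_3 with SiCIRBP_1 and SiCIRBP_3 (4 libraries) is given first here, with the comparison of all 6 libraries after it. Because those libraries were left out for their values, the spread over the remaining 4 can be too small.

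NF-kB proteins bind DNA as dimers of subunits that share the Rel homology domain. RELA, RELB and REL carry a transactivation domain, whereas NFKB1 and NFKB2 encode precursors that are processed to shorter DNA-binding subunits. In resting cells the dimers are held in the cytoplasm by IkB proteins such as those encoded by NFKBIA and NFKBIE. In the canonical pathway the IKK kinase complex triggers degradation of the IkB proteins. In the noncanonical pathway the NFKB2 precursor is processed, and the main partner of its product is RELB. Several of these genes are textbook targets of NF-kB itself, among them NFKBIA and TNFAIP3, whose protein is a ubiquitin-editing enzyme that dampens the signal. In the heart the pathway is known for its part in inflammation and in cell survival under stress.

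The sequence that ties many of these genes to their own pathway is the kB consensus, a motif of 10 bases. It was searched on both strands in windows from 250 bases before to 50 bases after each transcription start in RefSeq (GRCh38.p14), with overlapping matches joined. Of the 8 members with a window in the table, 5 held a match in at least 1 window (NFKB1, NFKB2, REL, NFKBIA and TNFAIP3), and RELA, TRAF1 and TRAF5 did not. For comparison, 13.3% of the 27305 genes with a window held one, and 17.6% of the 10522 tested genes with a window did. Among listed NF-kB target genes other than the members, 16 of 28 with a window held one (57.1%), so a match was not particular to the members. Counted by window, 37.5% of the 16 member windows and 11.3% of all 35116 windows held one. NFKBIE and RELB were not in the table. A match describes letters in this window and is no measurement of binding. The stretches of 30 bases below are shown on the strand of the gene because they hold the matches found in these 5 members, which are in capitals.

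NFKB1, chr4:102501300-102501329, match starting 49 bases before the start site, plus strand: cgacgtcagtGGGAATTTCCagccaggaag
REL, chr2:60881518-60881547, match starting 47 bases before the start site, plus strand: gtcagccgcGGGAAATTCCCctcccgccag
NFKBIA, chr14:35404811-35404840, match starting 81 bases before the start site, minus strand: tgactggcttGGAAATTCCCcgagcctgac
TNFAIP3, chr6:137867188-137867217, matches starting 67 and 55 bases before the start site, plus strand: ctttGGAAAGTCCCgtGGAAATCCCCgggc
NFKB2, chr10:102394462-102394491, match starting 107 bases before the second of its 3 start sites in the table, plus strand: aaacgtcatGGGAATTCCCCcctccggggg
NFKB2, chr10:102394490-102394519, match starting 78 bases before the same start site, plus strand: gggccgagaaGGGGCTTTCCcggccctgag
NFKB2, chr10:102395519-102395548, match starting 176 bases before the third start site, plus strand: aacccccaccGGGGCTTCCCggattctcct
NFKB2, chr10:102395674-102395703, match starting 21 bases before the third start site, plus strand: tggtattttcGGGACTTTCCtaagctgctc

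The deposited estimated counts summed to between 25726259 and 29919566 per library, and mitochondrially encoded genes took between 2.18% (SiCIRBP_2) and 3.33% (SiCIRBP_3) of them. Values per library are normalized counts (CPM, the count scaled to library size with the TMM method of edgeR). CIRBP, the targeted gene, was at 86.4, 85.8 and 90.95 CPM in NC_1, NC_2 and NC_3 and at 54.8, 24.3 and 46.3 in SiCIRBP_1, SiCIRBP_2 and SiCIRBP_3, lower in every SiCIRBP library. Of 15 cardiomyocyte markers, 11 were under 1 CPM in every library, including TNNT2, MYH6 and MYH7. The rest were GATA4 (between 47.4 and 111 CPM), ACTN2 (14.0 to 22.2), NKX2-5 (3.03 to 9.49) and TNNI3 (at most 1.07). Fibroblast markers summed to between 5826 and 6014 CPM in the NC libraries and to 6445, 3457 and 9637 CPM in SiCIRBP_1, SiCIRBP_2 and SiCIRBP_3. Immune markers summed to at most 15.1 CPM in any library, with CD3E and MS4A1 at 0 in all 6. SiCIRBP_2 stood apart in a list of 28 interferon-stimulated genes, all of which were highest in that library. Their summed level was between 709.7 and 731 CPM in the NC libraries, 392 in SiCIRBP_1, 1314 in SiCIRBP_3 and 6965 in SiCIRBP_2. In bulk RNA of this kind, fewer cells that express a gene and less RNA of it per cell cannot be told apart.

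Which members were called depended on the libraries compared and on the method. Over the 4 libraries, edgeR called NFKB1, RELB and TRAF5 lower in the SiCIRBP group and no member higher, whereas DESeq2 also called NFKB2 lower and TRAF1 higher. Over all 6 libraries, edgeR called no member and DESeq2 called TRAF1 higher. In SiCIRBP_2, 9 of the 10 members had their highest value of all 6 libraries, REL being the exception with its lowest. Of all 15217 genes tested, 4727 (31.1%) were highest in that library and 4906 were lowest, so it stood apart well beyond the members. In SiCIRBP_1, 7 of the 10 had their lowest value, against 15.5% of all genes tested.

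**Figure D1:**
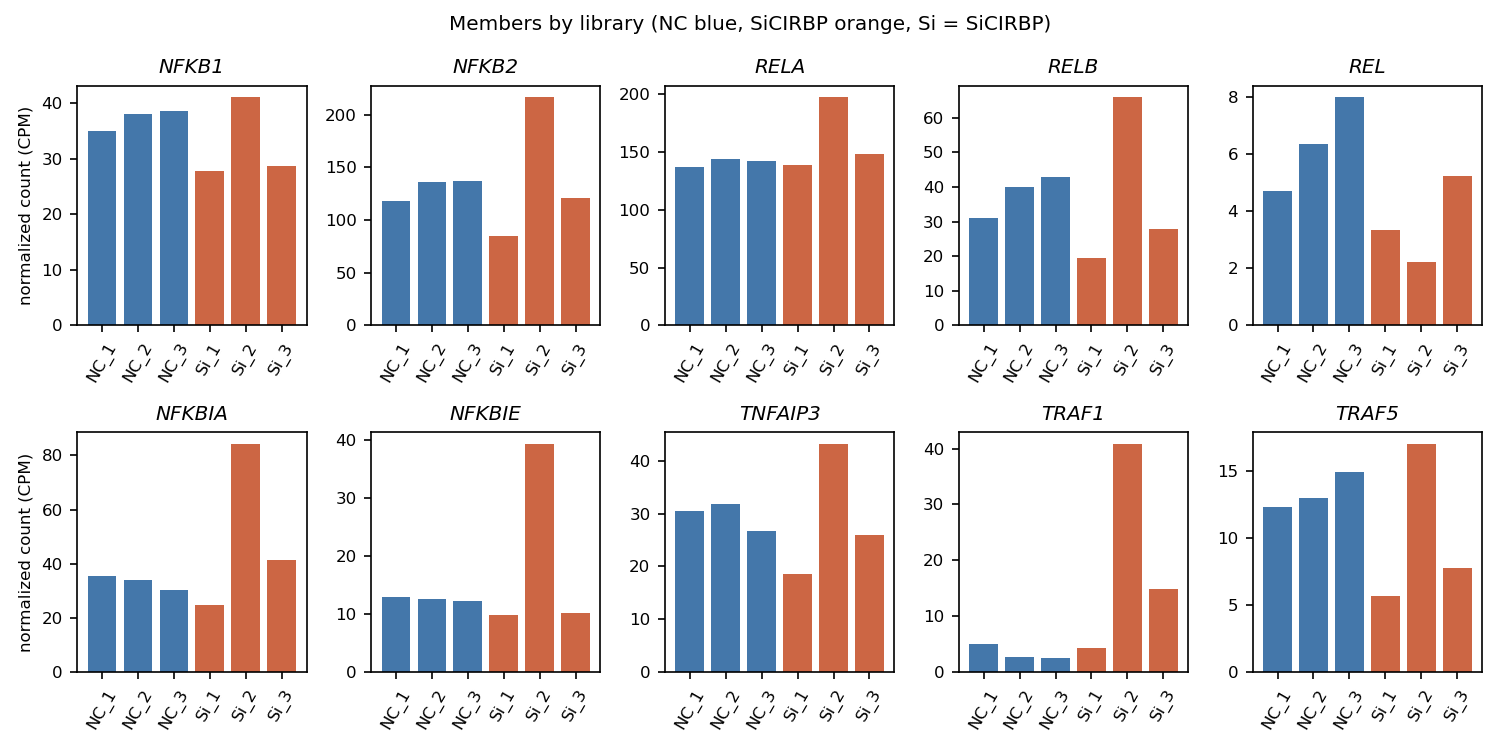
Bars give the normalized count (CPM, linear axis from 0) of each member in each library, NC in blue and SiCIRBP in orange. SiCIRBP_2 has the highest bar in 9 of 10 panels, and only in REL is it the lowest.

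All 10 members passed the expression filter of edgeR in both comparisons. Genes were called at a Benjamini-Hochberg adjusted p under 0.05 in edgeR's quasi-likelihood test over all genes tested. Over the 4 libraries, 3 of 10 members were called lower, where 9.76% of all genes tested were, and 0 of 10 were called higher, where 9.62% were. With a change of at least 2-fold asked as well, 1 member was called (TRAF5), and 3.62% of all genes were. DESeq2 called 5 of 10 over the 4 libraries, where 23.3% of genes with an adjusted p were called. The median log2 fold change of the 10 members was -0.40 over the 4 libraries with 7 of 10 negative, and 0.05 over all 6 with 5 of 10 negative, against -0.00 and 0.01 over all genes. By values alone, 7 members had both SiCIRBP values under both NC values, where 33.0% of all genes did, and 1 (TRAF1) had both above, where 32.5% did. These calls rest on both NC libraries. Without NC_2 or without NC_3 no member was called, where 1.04% and 0.403% of all genes were, and without SiCIRBP_1 or without SiCIRBP_3, 7 and 8 members were called, where 44.3% and 40.2% of all genes were, the lone library of a group being assumed to vary like the other group. Over all 6 libraries, 0 of 10 members were called by edgeR, where 0.0% of all genes were (2 members, REL and TRAF1, had an unadjusted p under 0.05, as did 3603 genes, or 23.7%). DESeq2 over the same 6 libraries called 1 of 10 (TRAF1), where 9.3% of genes with an adjusted p were called. Without SiCIRBP_2, edgeR called 1 of 10 over the remaining 5 libraries (TRAF5), where 7.2% of all genes were called.

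RELB, the partner of the processed NFKB2 subunit in the noncanonical pathway, was lower over the 4 libraries and highest in the library left out of them. Its normalized count was 31.1, 40.0 and 43.0 CPM in NC_1, NC_2 and NC_3 and 19.6, 65.8 and 27.9 CPM in SiCIRBP_1, SiCIRBP_2 and SiCIRBP_3. SiCIRBP_1 and SiCIRBP_3 thus lay under every NC library, and SiCIRBP_2 lay above every one. Over the 4 libraries its log2 fold change came to -0.81 (standard error, SE, 0.17; adjusted p = 0.0247 in edgeR), which became -0.86 without NC_2 (adjusted p = 0.118) and -0.76 without NC_3 (adjusted p = 0.194). With all 6 libraries the value was -0.01 (SE 0.40, adjusted p = 0.989), and without SiCIRBP_2 alone it was -0.68 (adjusted p = 0.0611). RELB lies on chromosome 19 of GRCh38 from 45001430 to 45038198.

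NFKB2 moved across libraries in the same order within the SiCIRBP group, with smaller steps. It was at 118, 136 and 137 CPM in the NC libraries and at 84.5, 216 and 121 CPM in SiCIRBP_1, SiCIRBP_2 and SiCIRBP_3. SiCIRBP_3 lay within the NC range, SiCIRBP_1 under it and SiCIRBP_2 above it, at 1.66 times the NC mean. Its fitted change (log2) was -0.41 over the 4 libraries (SE 0.16, adjusted p = 0.117 in edgeR and 0.0367 in DESeq2) and 0.11 over all 6 (SE 0.30, adjusted p = 0.847), and its sign over all 6 turned without SiCIRBP_2 (-0.34) and on the TPM scale (-0.19).

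NFKB1, which encodes the precursor of the other processed subunit, was lower over the 4 libraries by a smaller amount. It was at 34.9, 38.0 and 38.6 CPM in the NC libraries and at 27.9, 41.1 and 28.7 CPM in SiCIRBP_1, SiCIRBP_2 and SiCIRBP_3. Its spread was narrow within each pair of the 4 libraries, and the excess of SiCIRBP_2 over the NC mean was only 1.10-fold, the smallest of the 9 members that were highest there. On the log2 scale the change was -0.44 over the 4 libraries (SE 0.10, adjusted p = 0.0293 in edgeR), with -0.45 without NC_2 (adjusted p = 0.249) and -0.43 without NC_3 (adjusted p = 0.311). With all 6 included this became -0.19 (SE 0.17, adjusted p = 0.507), and without SiCIRBP_2 it was -0.39 (adjusted p = 0.0567).

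RELA, the main transactivating subunit of the canonical pathway, differed little between the groups. Its values were 137, 144 and 142 CPM in the NC libraries and 139, 197 and 148 CPM in SiCIRBP_1, SiCIRBP_2 and SiCIRBP_3, so that only SiCIRBP_2 lay far from the others. Its log2 fold change was 0.00 over the 4 libraries (SE 0.08, adjusted p = 0.971 in edgeR) and 0.19 over all 6 (SE 0.15, adjusted p = 0.442).

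REL, the subunit best known from lymphoid cells, ran against the other members in SiCIRBP_2. It was at 4.70, 6.33 and 7.97 CPM in the NC libraries and at 3.32, 2.22 and 5.24 CPM in SiCIRBP_1, SiCIRBP_2 and SiCIRBP_3, from estimated counts between 56.6 and 243. SiCIRBP_3 lay between NC_1 and NC_2, so the groups overlapped. Its log2 fold change was -0.74 over the 4 libraries (SE 0.26, adjusted p = 0.0915 in edgeR) and -0.82 over all 6 (SE 0.34, adjusted p = 0.201). In GENCODE 29, 43.3% of the exonic bases of REL are shared on the same strand with AC010733.2, which was at between 5.99 and 9.75 CPM, so that the division of reads between these genes is uncertain. Joined, an alternative chosen after seeing the data, they were at 12.7, 16.1 and 16.4 CPM in the NC libraries and at 9.31, 8.52 and 11.8 CPM in the SiCIRBP libraries, with no overlap between the groups. The joined log2 fold change was -0.62 over the 4 libraries (adjusted p = 0.037 in edgeR) and -0.61 over all 6 (adjusted p = 0.128).

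The inhibitors were all highest in SiCIRBP_2, and none was called by edgeR or DESeq2 in either comparison. NFKBIA, whose IkB protein is resynthesized under NF-kB control, was at 35.3, 34.0 and 30.2 CPM in the NC libraries and at 24.8, 84.3 and 41.5 CPM in SiCIRBP_1, SiCIRBP_2 and SiCIRBP_3. The SiCIRBP libraries thus lay below, far above and slightly above the NC range. Its log2 fold change was 0.05 over the 4 libraries (SE 0.23, adjusted p = 0.899 in edgeR). It was 0.37 without SiCIRBP_1 and -0.37 without SiCIRBP_3, so the value near 0 averages libraries on either side of NC. With all 6 libraries the value was 0.60 (SE 0.38, adjusted p = 0.358).

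NFKBIE, which encodes a related IkB protein, showed the sharpest contrast between SiCIRBP_2 and the remaining libraries among the inhibitors. It was at 12.9, 12.6 and 12.3 CPM in the NC libraries and at 9.86, 39.3 and 10.2 CPM in SiCIRBP_1, SiCIRBP_2 and SiCIRBP_3, the middle of these being 3.13 times the NC mean. The NC libraries differed by less than 1 CPM, and SiCIRBP_1 and SiCIRBP_3 both lay under them. Its fitted change (log2) was -0.31 over the 4 libraries (SE 0.13, adjusted p = 0.143 in edgeR) and 0.65 over all 6 (SE 0.50, adjusted p = 0.441), turning to -0.33 without SiCIRBP_2.

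TNFAIP3 was at 30.6, 31.8 and 26.7 CPM in the NC libraries and at 18.6, 43.2 and 25.9 CPM in SiCIRBP_1, SiCIRBP_2 and SiCIRBP_3. SiCIRBP_3 lay just under the lowest NC library, SiCIRBP_1 well under it and SiCIRBP_2 above all NC libraries. On the log2 scale the change was -0.39 over the 4 libraries (SE 0.18, adjusted p = 0.168 in edgeR) and -0.02 over all 6 (SE 0.28, adjusted p = 0.971).

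Of the TRAF members, TRAF5 was lower over the 4 libraries, and TRAF1 was called higher by DESeq2 but not by edgeR. TRAF1, an adaptor of TNF receptor family members that is itself a known NF-kB target, was at 4.94, 2.68 and 2.43 CPM in the NC libraries and at 4.21, 40.8 and 14.9 CPM in SiCIRBP_1, SiCIRBP_2 and SiCIRBP_3. SiCIRBP_1 lay under NC_1, so the groups overlapped over 6 libraries, while SiCIRBP_3 was 4.44 and SiCIRBP_2 12.2 times the NC mean. Its log2 fold change was 1.90 over the 4 libraries (SE 0.55, adjusted p = 0.0552 in edgeR and 0.000422 in DESeq2). With a lone SiCIRBP library it was 2.54 (without SiCIRBP_1) and 0.72 (without SiCIRBP_3). With all 6 included this became 2.57 (SE 0.73, adjusted p = 0.119 in edgeR, and 0.0452 in DESeq2). In TRAF1, as in all members but REL, the SiCIRBP libraries rose in the order SiCIRBP_1, SiCIRBP_3, SiCIRBP_2. The summed interferon-stimulated genes rose in that order (392, 1314 and 6965 CPM), and CIRBP itself fell in it (54.8, 46.3 and 24.3 CPM). The part of either in the result was not tested, and the share of all genes in this order was not counted.

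TRAF5, an adaptor of other TNF receptor family members such as CD40, was the member with the largest decrease over the 4 libraries. It was at 12.3, 13.0 and 14.9 CPM in the NC libraries and at 5.65, 17.0 and 7.73 CPM in SiCIRBP_1, SiCIRBP_2 and SiCIRBP_3. SiCIRBP_1 and SiCIRBP_3 were at 0.421 and 0.576 times the NC mean and SiCIRBP_2 was above every NC library. Its log2 fold change was -1.06 over the 4 libraries (SE 0.19, adjusted p = 0.0164 in edgeR), with -1.16 without NC_2 (adjusted p = 0.0817) and -0.96 without NC_3 (adjusted p = 0.167). With all 6 included this became -0.41 (SE 0.37, adjusted p = 0.516), and without SiCIRBP_2 it was -1.004 (SE 0.18, adjusted p = 0.0277). TRAF5 lies on chromosome 1 of GRCh38 from 211326615 to 211374946.

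In exact two-sided permutation tests of mean log2(CPM + 1) over 3 against 3 libraries, which cannot go below p = 0.1, the 10 members gave p-values from 0.2 (REL and TRAF1) to 1. For every member the NC and SiCIRBP groups overlapped over the 6 libraries, whereas 16.6% of all genes tested were lower and 16.2% were higher in the SiCIRBP group without overlap.

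**Figure D2:**
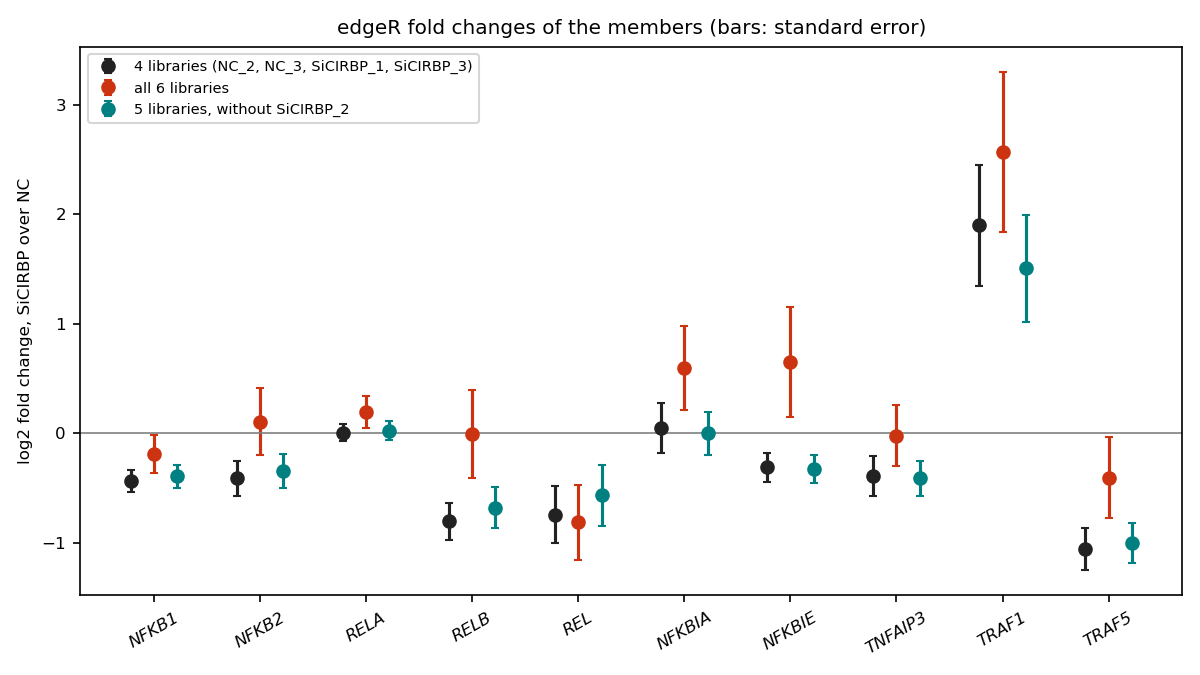
Points give the log2 fold change of SiCIRBP over NC for each member, with bars of 1 standard error, fitted by edgeR over 4, 6 and 5 libraries. For RELB, NFKBIE and TRAF5 the fit over all 6 libraries (-0.01, 0.65 and -0.41) lies above both fits without SiCIRBP_2, and TRAF1 is positive in all 3.

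Among the members with a kB match, SiCIRBP_2 stood at 2.54 (NFKBIA), 1.66 (NFKB2), 1.46 (TNFAIP3), 1.10 (NFKB1) and 0.35 (REL) times the NC mean. Among those without, it stood at 12.2 (TRAF1), 1.397 (RELA) and 1.27 (TRAF5) times. RELB and NFKBIE, with no window searched, stood at 1.73 and 3.13 times.

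Levels of different members can be compared only per transcript length, for which the deposited TPM values were used. In the NC libraries RELA was the most abundant at 116 ± 12.8 TPM (SD, n = 3), followed by NFKB2 at 82.2 ± 10.6, NFKBIA at 36.2 ± 2.80 and RELB at 26.8 ± 5.75. TNFAIP3 at 14.7 ± 2.94 and NFKB1 at 14.1 ± 1.03 overlapped and cannot be ordered. NFKBIE (7.86 ± 0.38) and TRAF5 (5.18 ± 0.50) came next, and TRAF1 (1.08 ± 0.43) and REL (0.97 ± 0.32) overlapped at the bottom. Every other pair of neighbours in this order was free of overlap between the 3 NC libraries. In the SiCIRBP libraries the spread was wider, as for RELB at 24.1 ± 15.1 and NFKBIA at 48.0 ± 24.5 TPM (SD, n = 3), and TRAF1 stood at 5.83 ± 5.24, above TRAF5 at 3.54 ± 1.83, with overlapping values.

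The count of a gene divided by its TPM gives, up to a factor per library, the transcript length that the quantification assigned to it, and it differed between the highest and the lowest library by 1.03-fold (NFKB1) to 1.21-fold (RELA) in 8 of the members. The median over 8687 genes with at least 5 TPM in every library was 1.11-fold. TNFAIP3 was at 1.74-fold, above the 90th percentile of these genes (1.33-fold). Relative to its mean over libraries, its assigned length was 1.15, 0.86 and 1.02 in the NC libraries and 0.696, 1.21 and 1.06 in SiCIRBP_1, SiCIRBP_2 and SiCIRBP_3, so the libraries of both groups differed among themselves. TNFAIP3 TPM was therefore 12.5 in SiCIRBP_1, inside the range of the other libraries (11.4 to 18.1), although its CPM there was the lowest of all. For REL the length differed by 1.49-fold, with SiCIRBP_2 shortest, at under 1.5 TPM in all libraries.

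The other genes of the pathway were read from lists by role, with more called lower than higher over the 4 libraries. Of 97 listed pathway and target genes that are no members, 80 were tested, of which 16 were called lower and 3 higher (edgeR, adjusted p under 0.05), where 9.76% and 9.62% of all genes were. Their median log2 fold change was -0.17 over the 4 libraries and 0.11 over all 6. Over all 6, 36 of 80 were negative, beside 7503 of 15217 among all genes tested. Without overlap, 13 were lower and 15 higher, where 16.6% and 16.2% of all genes were, so these counts lie near those shares. Over all 6 libraries 0 of 80 were called by edgeR (21 at an unadjusted p under 0.05, where 23.7% of all genes were). DESeq2 called 9 over the same libraries, where 9.3% of genes with an adjusted p were called. Leaving out single libraries of the 4 changed how many pathway and target genes were called, as it did for all genes.

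Of the ligands that switch the pathway on, TNF and IL1B were near the detection limit and TNFSF12 was well above it. TNF had a count of 0 in all NC libraries and in SiCIRBP_1, which allows up to 0.117 CPM by counting error alone, and was at 0.233 CPM in SiCIRBP_2 and 0.107 in SiCIRBP_3. Of 9 listed ligands, 2 were tested and both were called lower over the 4 libraries, where 9.76% of all genes were. IL1B, the ligand of the interleukin receptor encoded by IL1R1, was at 0.386, 0.582 and 0.984 CPM in the NC libraries and at 0.103, 0.272 and 0.0356 CPM in the SiCIRBP libraries (log2 fold change -3.42, SE 0.67, adjusted p = 0.0197 in edgeR over 4 libraries). It had 11, 15 and 30 counts in the NC libraries and 3, 7 and 1 in the SiCIRBP libraries, so that this fold depends on the prior count of the fit and is imprecise (over all 6 libraries -2.25, adjusted p = 0.122). TNFSF12, the ligand of the receptor encoded by TNFRSF12A, fell by 0.71 on the log2 scale (adjusted p = 0.027 in edgeR over 4 libraries, and 0.21 over all 6 with a change of -0.49), and its exons are shared in part with a readthrough gene.

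Among 13 tested receptors and adaptors, 1 was called lower and 1 higher over the 4 libraries, where 9.76% and 9.62% of all genes were. TRAF3IP2, the adaptor of the interleukin-17 receptor, was at 11.8, 11.1 and 11.6 CPM in the NC libraries and at 5.34, 14.9 and 5.66 CPM in SiCIRBP_1, SiCIRBP_2 and SiCIRBP_3 (log2 fold change -1.05, SE 0.15, adjusted p = 0.0101 in edgeR over 4 libraries), which is the arrangement seen for TRAF5. The change of TRAF3IP2 over all 6 libraries was -0.42 (adjusted p = 0.512 in edgeR). TNFRSF12A was at 115, 112 and 106 CPM in the NC libraries and at 170, 251 and 184 CPM in the SiCIRBP libraries, higher in all 3. Its log2 fold change was 0.70 over the 4 libraries (adjusted p = 0.00688 in edgeR) and 0.86 over all 6 (adjusted p = 0.0869 in edgeR, 0.000514 in DESeq2).

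Of 14 kinases, 3 were called lower and 0 higher, where 9.76% and 9.62% of all genes were. They were IKBKB, a catalytic subunit of the IKK complex, at -0.56 (adjusted p = 0.0168 in edgeR over 4 libraries), and MAP3K7 at -0.38 and TAB2 at -0.39, which encode a kinase upstream of IKK and its partner. With all 6 libraries MAP3K7 was at -0.28 (adjusted p = 0.192 in edgeR) and TAB2 at -0.23 (adjusted p = 0.343). IKBKB was at 64.1, 70.0 and 73.6 CPM in the NC libraries and at 52.1, 41.6 and 45.6 CPM in the SiCIRBP libraries, without overlap, and its log2 fold change over all 6 was -0.58 (adjusted p = 0.0964 in edgeR, 0.0087 in DESeq2). MAP3K14, the kinase of the noncanonical pathway, was at 126, 127 and 124 CPM in the NC libraries and at 116, 114 and 102 CPM in the SiCIRBP libraries, without overlap (log2 fold change -0.20, adjusted p = 0.169 in edgeR over 4 libraries and 0.33 over all 6).

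Of 16 tested ubiquitin ligases, deubiquitinases and their partners, 4 were called lower and 0 higher, where 9.76% and 9.62% of all genes were. RNF31 (-0.77) encodes the catalytic subunit of the linear ubiquitin ligase and OTULIN (-0.53) the enzyme that removes linear chains. TNIP1 (-0.40) encodes a partner of the TNFAIP3 protein and FBXW11 (-0.47) a subunit of the ligase that marks IkB for degradation. Over all 6 libraries the changes were -0.43 for RNF31 (adjusted p = 0.245 in edgeR), -0.33 for OTULIN (0.232), -0.18 for TNIP1 (0.465) and -0.395 for FBXW11 (0.117), and the groups overlapped in all of these but FBXW11. The other TRAF genes (TRAF2, TRAF3, TRAF4, TRAF6 and TRAF7) gave 0 calls among 5, beside 9.76% called lower and 9.62% higher among all genes. Their log2 fold changes lay between -0.21 and 0.26 over the 4 libraries. Another list of 6 tested genes held IkB-type genes together with NKIRAS1 and NKIRAS2, whose proteins bind IkB. Of these, only NFKBIL1 was called lower, where 9.76% of all genes were. It was at 27.9, 40.4 and 49.0 CPM in the NC libraries and 23.6, 21.2 and 19.5 CPM in the SiCIRBP libraries (log2 fold change -1.05, SE 0.15, adjusted p = 0.00914 in edgeR over 4 libraries). Every SiCIRBP value of NFKBIL1 lay under every NC value, and over all 6 libraries its change was -0.87 (adjusted p = 0.101 in edgeR, 0.00664 in DESeq2).

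Of 34 listed target genes other than the members, 28 were tested over the 4 libraries. Of these, 6 were called lower and 2 higher, where 9.76% and 9.62% of all genes were. The 6 include TNIP1, which stands on both lists and was also counted with the ubiquitin ligases and their partners. IL6, a secreted cytokine, had the largest decrease, at 16.3, 54.5 and 59.8 CPM in the NC libraries and 8.08, 12.6 and 5.81 CPM in the SiCIRBP libraries (log2 fold change -3.04, SE 0.17, adjusted p = 0.00262 in edgeR over 4 libraries). LIF, a cytokine of the same family, was at 28.2, 54.5 and 50.8 CPM in the NC libraries and 26.6, 33.6 and 15.5 CPM in the SiCIRBP libraries (log2 fold change -1.32, SE 0.23, adjusted p = 0.0156). For both, NC_1 lay far under the other NC libraries, and over all 6 libraries the adjusted p was 0.0912 for IL6 and 0.184 for LIF. The chemokine gene CCL2 was at 309, 297 and 232 CPM in the NC libraries and 150, 107 and 154 CPM in the SiCIRBP libraries (log2 fold change -0.80, adjusted p = 0.0114 in edgeR over 4 libraries and 0.0869 over all 6). The 2 called higher were SOD2, which encodes a mitochondrial superoxide dismutase (0.48, adjusted p = 0.0232 in edgeR over 4 libraries and 0.143 over all 6), and ZC3H12A, which encodes a ribonuclease that degrades cytokine mRNAs (0.76, adjusted p = 0.0322 and 0.124). Both were higher in all 3 SiCIRBP libraries than in any NC library.

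In SiCIRBP_2, 19 of the 29 target genes tested over 6 libraries had their highest value, against 31.1% of all genes. The adhesion molecule gene ICAM1 was at 10.7, 15.0 and 13.5 CPM in the NC libraries and 6.16, 28.1 and 8.73 CPM in SiCIRBP_1, SiCIRBP_2 and SiCIRBP_3. BIRC3, which encodes an inhibitor of apoptosis recruited by TRAF proteins, was at 7.22, 6.17 and 5.77 CPM in the NC libraries and 1.71, 21.2 and 5.81 CPM in the SiCIRBP libraries. ICAM1 and BIRC3, chosen after their values were seen, thus had the arrangement of RELB and NFKBIA, lowest in SiCIRBP_1 and highest in SiCIRBP_2. IL6, CCL2, SOD2 and ZC3H12A did not. The share of target genes or of all genes with this arrangement was not counted. ICAM1 was among those called lower over the 4 libraries (log2 fold change -0.94, adjusted p = 0.0229 in edgeR). Over all 6 its change was 0.13 (adjusted p = 0.892 in edgeR). The median log2(CPM + 1) difference of the 29 target genes from the NC mean was -0.33 in SiCIRBP_1, 0.74 in SiCIRBP_2 and -0.11 in SiCIRBP_3. For the 10 members it was -0.51, 0.63 and -0.20, and for the interferon-stimulated genes -0.80, 3.56 and 0.88. The part of the interferon-stimulated genes, or of the depth of the CIRBP decrease, in these differences was not tested.

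**Figure D3:**
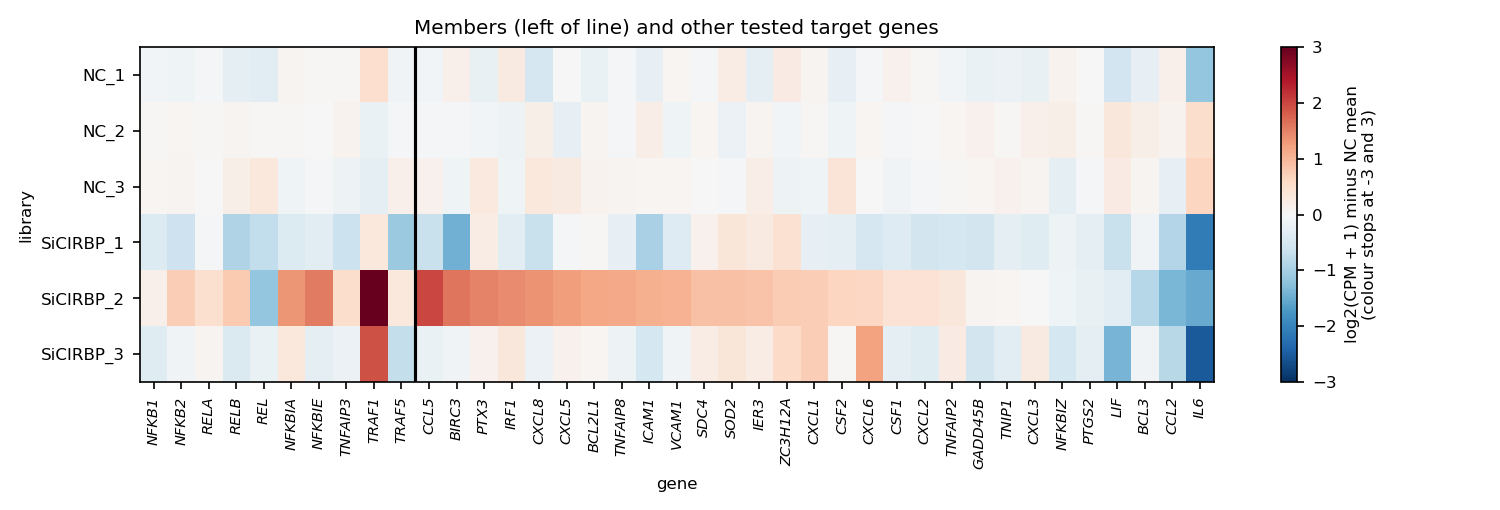
Colour gives the difference of log2(CPM + 1) from the mean of the NC libraries for the 10 members (left of the line) and 29 other target genes (right, ordered by SiCIRBP_2), 1 row for each library. The SiCIRBP_2 row is mostly red, with REL, BCL3, CCL2, LIF and IL6 among those in blue, and the SiCIRBP_1 row is mostly blue.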

How the data were processed

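RNA-seq libraries were grouped by their labels (3 NC, 3 SiCIRBP). The authors deposited an estimated count per gene and library, which is not normalized and not always whole, and a TPM value, scaled by assigned transcript length and library. The submitters' processing notes name fastp, HISAT and RSEM on hg38. Versions, annotation and strand setting are not given in the sources used here. The deposited tables also hold the authors' own comparisons (fold changes and p-values), which were not used.

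Rounded counts entered edgeR 4.0.16 under R 4.3.3 (filterByExpr, TMM, quasi-likelihood test, Benjamini-Hochberg adjustment) over 15421 genes in the paper's 4 libraries and 15217 genes in all 6. Standard errors were derived from the fold change and its F statistic (the ratio of the change to the root of F). Alternatives were DESeq2 1.42.0, RLE size factors, no filter, at least 10 counts in every library, limma 3.58.1 on log2(TPM + 1) or log2(TPM + 0.1) with a mean TPM of at least 1 or no filter, each library left out, and the replicate block over 6 libraries. The edgeR and DESeq2 procedures were tested on simulated counts with the same dispersion in every gene and no outlying library. That test covers neither limma nor a library that stands apart. Locations are from GENCODE 29 (58611 of 58884 identifiers found). Symbols on 2 identifiers (SOD2) were resolved to the larger count, and NFKBID was not matched.

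The members and lists were chosen with earlier results of these data known. All members were named, and of the lists those genes called over 4 libraries with at least a 2-fold change, in order of p, up to 20. Other genes, named where a count was small or to illustrate a list, were chosen after their values were seen. Total counts were 25726259 to 29919566 per library, at which a floor of 3 counts is 0.0984 to 0.117 CPM, for counting error only. Same-numbered libraries were checked for pairing and were not taken as pairs.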

Additional observations from a re-analysis of the deposited data

How the results depend on the processing

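Over the 4 libraries, edgeR called 2989 of all genes, 3 members and 19 pathway and target genes. DESeq2 called 5 members (also NFKB2 and TRAF1). With no filter on low counts the numbers were 4615, 7 and 30. On log2(TPM + 1), limma called 1283 genes, on log2(TPM + 0.1) 1402, and with no filter on low TPM values 0, 0 and 0. With single libraries left out they ran from 64 (without NC_3) to 7048 genes (without SiCIRBP_1), from 0 to 8 members and from 2 to 45 pathway and target genes, since the spread is estimated from the pair that is left. Over all 6 libraries, where edgeR called 0 of each, DESeq2 called 1341 genes, 1 member and 9 pathway and target genes, and no filter gave 881, 1 and 5. With single libraries left out they ran from 0 to 1118 (without SiCIRBP_2), from 0 to 1 and from 0 to 10, with 18 genes without NC_1. The replicate block called 1 gene and no member. For the pairs numbered 1, 2 and 3, deviations of the NC and the SiCIRBP library from their groups correlated over genes at -0.118, 0.006 and -0.026, so the numbers were not taken as pairs, and over the 4 libraries no paired analysis was possible because the groups share only number 3.

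Of the members' fold changes, 11 of the alternative values over the 4 libraries and 17 over the 6 had the opposite sign, and the cause was not tested. Over the 4 libraries these were RELA (-0.19 on the TPM scale under each setting, -0.013 with no filter on low counts, between -0.0496 and 0.0458 with single libraries left out) and NFKBIA (-0.0497 with 0.1 added to TPM and -0.047 with 1 added, filtered or not, between -0.37 and 0.37 with single libraries left out). Over all 6 they were NFKB2 (-0.19 on the TPM scale, -0.0014 with the replicate block, between -0.34 and 0.38 with single libraries left out) and RELA (-0.0506 with 0.1 added to TPM and -0.0502 with 1 added, filtered or not). RELB ran between -0.68 and 0.31, NFKBIA between -0.0002 and 0.93, NFKBIE between -0.33 and 0.98 and TNFAIP3 between -0.41 and 0.23 with single libraries left out.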
